A study of Mus musculus with 8 samples.

Results

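Skeletal muscle transcripts were followed in RNA of adipocyte precursors (APs), the dermal mesenchymal cells that can form fat cells, from a skin wound and from intact skin. The list holds 40 genes of the sarcomere, its calcium supply, its energy supply and its transcription factors, of 24356 gene symbols in the table, and it covers 65 transcript isoforms. The genes were named as skeletal muscle genes lower in the wound bed, that is, they were chosen by their group FPKM in this very comparison, so every wound bed and nonwounded value below describes the list and tests nothing. A fluorescence-activated sort of dermal cells gave the APs, and all mice were male C57/Bl6 aged 7 weeks. Wound bed APs were 2 samples taken at day 5 after wounding, and nonwounded APs were 6 samples of dorsal skin. The surface proteins used for the sort are not given in the sources used here, nor is it stated whether the samples came from separate animals. For each isoform the table has a single FPKM (a fragment count per transcript length and per library depth) per group, as the authors deposited it. Values per sample are lacking, so no SD can be stated, and the number of samples behind a difference could not be counted.

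Skeletal muscle fibres contract when calcium released from the sarcoplasmic reticulum binds troponin on the actin filament and lets myosin of the thick filament pull on it. Fast and slow fibres build this machinery from different members of the same gene families, and the myogenic factors of the MyoD family switch these genes on during muscle formation. Mouse back skin carries a thin sheet of striated muscle, the panniculus carnosus, beneath the dermal fat in which APs reside.

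The 4 genes with the highest nonwounded FPKM among those with a promoter at hand are shown by the 250 bases before their start sites, because these members stood lower together. The sequences are from RefSeq on GRCm38.p6, written 5′ to 3′ along the gene. Capitals mark E-boxes (CANNTG, the motif bound by factors of the MyoD family), the CArG box (bound by serum response factor) and the TATA box (TATAAA). Mylpf lies at chr7:127211358-127211607 on the plus strand, Acta1 at chr8:123894776-123895025 on the minus strand, Myl1 at chr1:66945057-66945306 on the minus strand and Tnnc2 at chr2:164779735-164779984 on the minus strand.
Mylpf: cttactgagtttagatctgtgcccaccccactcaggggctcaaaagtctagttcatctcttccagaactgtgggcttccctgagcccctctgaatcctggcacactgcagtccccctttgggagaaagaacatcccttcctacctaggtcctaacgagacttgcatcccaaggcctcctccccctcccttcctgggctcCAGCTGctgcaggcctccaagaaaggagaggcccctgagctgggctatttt
Acta1: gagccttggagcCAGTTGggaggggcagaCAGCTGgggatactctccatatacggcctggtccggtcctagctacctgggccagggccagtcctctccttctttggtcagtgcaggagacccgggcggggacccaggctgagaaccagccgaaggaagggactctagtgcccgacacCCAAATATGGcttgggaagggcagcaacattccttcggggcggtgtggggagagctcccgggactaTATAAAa
Myl1: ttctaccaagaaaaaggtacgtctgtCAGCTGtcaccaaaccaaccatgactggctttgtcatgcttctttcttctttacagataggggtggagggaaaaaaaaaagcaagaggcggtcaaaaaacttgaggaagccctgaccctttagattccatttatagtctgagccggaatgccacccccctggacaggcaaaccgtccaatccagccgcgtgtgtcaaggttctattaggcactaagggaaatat
Tnnc2: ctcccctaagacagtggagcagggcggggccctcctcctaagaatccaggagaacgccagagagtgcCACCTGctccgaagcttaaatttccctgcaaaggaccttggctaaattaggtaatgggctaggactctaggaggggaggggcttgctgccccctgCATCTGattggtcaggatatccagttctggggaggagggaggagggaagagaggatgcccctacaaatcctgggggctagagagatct
All 4 windows held at least 1 E-box, with 2 in Acta1 and 2 in Tnnc2, and Acta1 also held a CArG box and a TATA box.

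Promoters were at hand for 30 of the 40 genes. An E-box lay in 23 of these 30 windows, or 76.7%, against 66.0% of 27025 promoters of the same length, 1 per gene symbol. A CArG box was found in 3 (Acta1, Ldb3 and Myh4), against 1.40% of all promoters. The MEF2 motif was searched as CTA, any 4 bases and TAG, so a match need not be a MEF2 site. This pattern lay in 3 (Myoz2, Smpx and Ttn), against 3.23% of all promoters, and TATAAA in 4, or 13.3% against 8.12%. All motifs were searched on both strands except TATAAA, which was searched on the strand of the gene. A match describes these letters and does not show that a factor was bound. The genes Actn3, Jph1, Mylk2, Myod1, Myot, Myoz1, Neb, Tcap, Tnni2 and Tnnt3 are named without a promoter.

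Summed over isoforms, 33 of the 40 genes stood lower in the wound bed than in nonwounded skin and 7 stood higher. By the isoform with the highest sum of both values, here called the major isoform, 32 stood lower. The share of lower genes was 82.5% by isoform sums, and over all 20941 genes with unequal sums it was 66.0%. The 40 genes together held 15.5 FPKM in the wound bed and 157.6 FPKM in nonwounded skin, a level 10.2-fold lower in the wound bed. These sums were 0.00336% of all FPKM in the wound bed against 0.0326% in nonwounded skin. In nonwounded skin 7 genes (Mylpf, Acta1, Myl1, Tnnc2, Tnnt3, Tnni2 and Pvalb) held 86.2% of the sum, so the fold mostly describes these. In bulk RNA, fewer cells of a type and less RNA per cell cannot be told apart.

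Levels were low in both groups. In the wound bed 5 genes reached an FPKM of 1 (Acta1, Mylpf, Tnnt3, Tnni2 and Tnnc1) and the median gene stood at 0.119 FPKM. In nonwounded skin 16 genes reached an FPKM of 1, and the median gene stood at 0.399 FPKM. The median of genes above 0 was 3.40 FPKM over 17469 genes in the wound bed and 2.40 FPKM over 20744 genes in nonwounded skin. These medians cover different sets of genes and do not compare the groups. Mylpf, the highest member in nonwounded skin, ranked 11181 among all genes in wound bed APs, against 2131 in nonwounded APs. Pdgfra, a receptor gene that marks mesenchymal precursors, ranked 789 in wound bed APs, against 901 in nonwounded APs. The marker Ly6a stood at 1576 FPKM in the wound bed and 2691 FPKM in nonwounded skin, and Cd34 at 679 FPKM (wound bed) against 1104 FPKM (nonwounded).

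The median log2 fold change (wound bed over nonwounded) was -1.93 over the 34 members whose major isoform was above 0 in both groups, and -0.20 over 17218 genes. With isoform sums it was -2.0 over 35 members and -0.22 over 17272 genes. With a pseudocount of 1 the major isoform median was -0.35. Larger differences were seen among the higher genes, although a mean that contains the nonwounded value is not independent of the difference. The 6 genes with a mean FPKM of both groups of at least 5 all stood lower, with log2 fold changes from -4.85 to -2.81. No member exceeded 2.61 FPKM in the wound bed, so genes reached this limit only through nonwounded skin, which fixes their direction. Of 10 genes with a mean between 0.5 and 5, 9 stood lower, and the median of the 10 was -2.44. Of 24 genes under 0.5, 18 stood lower and 6 higher, with a median of -1.31 over those above 0 in both groups. Across the 40 genes the wound bed and nonwounded sums had a Spearman correlation of 0.70, and all genes had 0.88. The points of each share the same libraries, so these are descriptions.

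**Figure D1:**
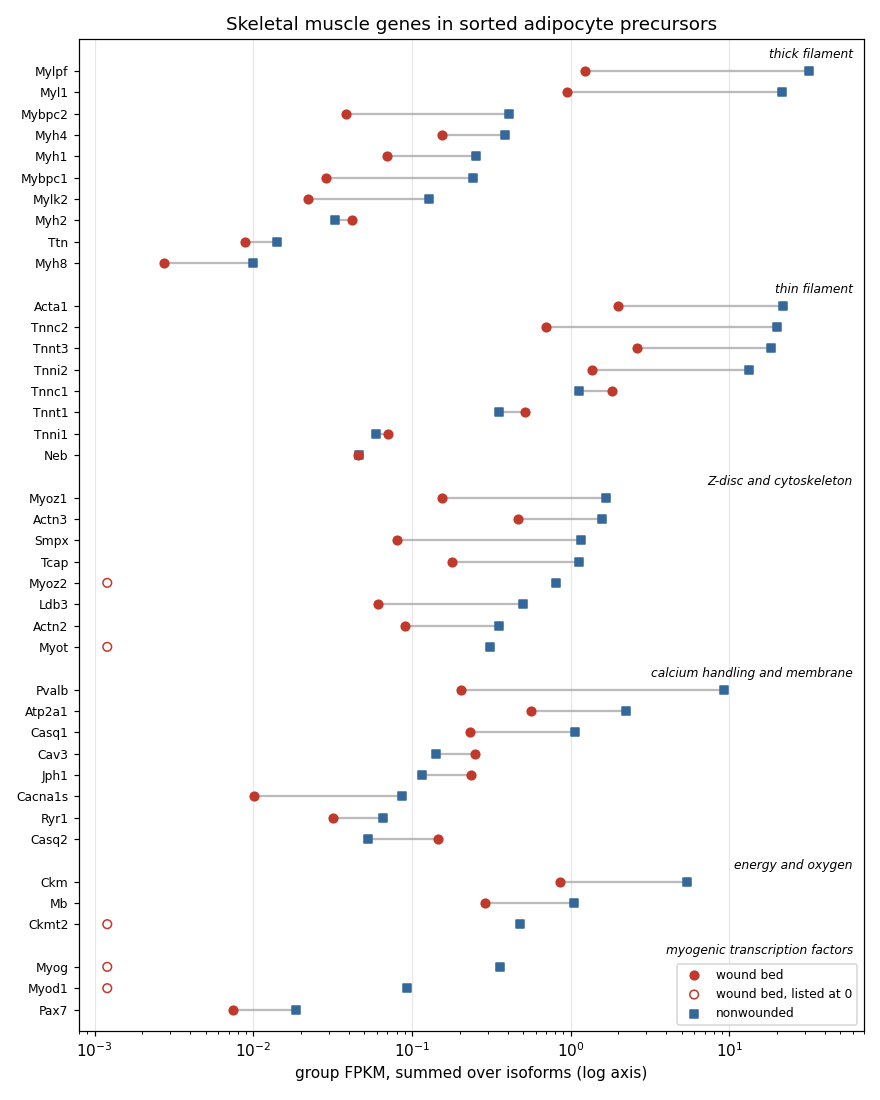
Group FPKM summed over isoforms (horizontal log axis) of the 40 muscle genes (rows, by role), with red circles for the wound bed, open red circles at the left edge for genes listed at 0 there, and blue squares for nonwounded skin. Among genes above 0 in both groups the widest gaps are those of Pvalb (0.203 FPKM in the wound bed, 9.20 FPKM in nonwounded skin) and Tnnc2 (0.698 FPKM in the wound bed, 20.1 FPKM in nonwounded skin), and in 7 rows the red circle lies to the right.

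Of the 40 genes, 16 had a major isoform that the authors' software tested and 24 did not. By the p-values of the authors' deposited table, 3 of these 16 were called at a Benjamini-Hochberg adjusted p under 0.05, all lower in the wound bed, and 0 higher. Over all genes, 8.68% of 13714 tested major isoforms were called lower and 7.01% higher. Because the genes were named on this comparison, the count is not read against that share. The 3 called were Mylpf, Myl1 and Myoz2. A further 13 were tested and not called, 12 of them lower in the wound bed, and at an adjusted p under 0.1 there were 5 calls. The unadjusted p in the authors' deposited table was under 0.05 for 10 of the 16. Shares over all genes at an adjusted p under 0.1 and at this unadjusted limit are not given, so these counts are not read as support.

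Thick filament genes summed to 2.54 FPKM in the wound bed and 54.7 FPKM in nonwounded skin, and 9 of 10 stood lower. Mylpf, the regulatory light chain of fast myosin, stood at 1.23 FPKM in the wound bed and 31.8 FPKM in nonwounded skin. It fell by 4.69 on the log2 scale, with p = 5e-05 in the authors' deposited table and a Benjamini-Hochberg adjusted p of 0.000882. Myl1 encodes the alkali light chains of fast myosin from 2 isoforms. Its major isoform stood at 0.741 FPKM in the wound bed and 17.3 FPKM in nonwounded skin and fell by 4.54 on the log2 scale (Benjamini-Hochberg adjusted p = 0.0203, from the p of the authors' deposited table). The other Myl1 isoform, at 0.204 FPKM (wound bed) against 4.12 FPKM (nonwounded), had a similar log2 fold change of -4.34 and was not called (p = 0.312 in the authors' deposited table).

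The myosin heavy chains, the motor proteins themselves, were far below their light chains. Myh4, the heavy chain of the fastest fibres, stood at 0.154 FPKM in the wound bed and 0.388 FPKM in nonwounded skin. Myh1, another fast heavy chain, stood at 0.0698 FPKM (wound bed) against 0.252 FPKM (nonwounded). Myh2, of fast oxidative fibres, stood at 0.0416 FPKM in the wound bed and 0.0326 FPKM in nonwounded skin, and Myh8, the perinatal chain, at 0.00275 FPKM (wound bed) against 0.00996 FPKM (nonwounded). The 4 heavy chains together had 0.268 FPKM in the wound bed and 0.683 FPKM in nonwounded skin, and none was tested. Their genes lie side by side on chromosome 11 between positions 67171027 and 67308633, as the table gives them, and reads shared between such similar genes make the value of each uncertain.

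The other thick filament genes were at or under 0.41 FPKM in each group. Mybpc2 and Mybpc1, the myosin binding proteins of fast and of slow fibres, stood at 0.0386 FPKM (wound bed) against 0.410 FPKM (nonwounded) and at 0.0287 FPKM (wound bed) against 0.241 FPKM (nonwounded). Mylk2, the kinase of the skeletal regulatory light chain, stood at 0.0220 FPKM in the wound bed and 0.127 FPKM in nonwounded skin. Ttn, the giant spring protein titin, stood at 0.00892 FPKM (wound bed) against 0.0142 FPKM (nonwounded) summed over 2 isoforms. These isoforms went opposite ways, the one with the higher sum standing at 0.00892 FPKM in the wound bed and 0.00378 FPKM in nonwounded skin, so that the direction of Ttn depends on the isoform taken.

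Thin filament genes summed to 9.09 FPKM in the wound bed and 75.1 FPKM in nonwounded skin. Acta1, the skeletal muscle actin, had 1.99 FPKM in the wound bed and 21.7 FPKM in nonwounded skin. Its major isoform had a log2 fold change of -3.39, with p = 0.0110 in the authors' deposited table and a Benjamini-Hochberg adjusted p of 0.0724, so it was not called. Reads shared with the other actin genes make this value uncertain. Tnnc2, the calcium sensor of fast troponin, stood at 0.698 FPKM in the wound bed and 20.1 FPKM in nonwounded skin. Its log2 fold change of -4.85 exceeded that of Mylpf in size, and its Benjamini-Hochberg adjusted p of 0.0517, from the p of the authors' deposited table, lay just outside the threshold. Tnni2, the fast inhibitory troponin, had 1.36 FPKM (wound bed) against 13.4 FPKM (nonwounded), a log2 fold change of -3.30 and a Benjamini-Hochberg adjusted p of 0.103 from the p of the authors' deposited table.

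Tnnt3, the fast tropomyosin-binding troponin, was spread over 8 isoforms that summed to 2.61 FPKM in the wound bed and 18.3 FPKM in nonwounded skin, which is -2.81 as a log2 fold change. Its major isoform NM_001163669 was listed at 0 in the wound bed and stood at 6.44 FPKM in nonwounded skin, and NM_011620 was listed at 0 in the wound bed and stood at 4.38 FPKM in nonwounded skin. The isoform NM_001163668 stood at 1.58 FPKM (wound bed) against 4.49 FPKM (nonwounded). NM_001163670, by contrast, had 1.03 FPKM in the wound bed and 1.19 FPKM in nonwounded skin. None of the 6 tested Tnnt3 isoforms was called, and an isoform listed at 0 can be a failed estimate. Tnni2 and Tnnt3 lie near each other on chromosome 7, which carries 9 of the 40 genes.

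The 3 slow troponin genes stood higher in the wound bed, and none was called. Tnnc1, the troponin C of slow fibres and heart, stood at 1.81 FPKM in the wound bed and 1.14 FPKM in nonwounded skin, without a call (p = 0.588 in the authors' deposited table). Tnnt1 stood at 0.517 FPKM (wound bed) against 0.355 FPKM (nonwounded) and Tnni1 at 0.0706 FPKM (wound bed) against 0.0589 FPKM (nonwounded), both untested. Neb, the thin filament ruler nebulin, was nearly level at 0.0455 FPKM in the wound bed and 0.0464 FPKM in nonwounded skin.

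All 8 genes of the Z-disc and cytoskeleton stood lower, with 1.03 FPKM in the wound bed and 7.51 FPKM in nonwounded skin in sum. Myoz2, a calcineurin-binding Z-disc protein of slow fibres and heart, was listed at 0 in the wound bed and at 0.812 FPKM in nonwounded skin. It was called lower, with p = 5e-05 in the authors' deposited table, and no fold is given against a value listed at 0. Its fast counterpart Myoz1 stood at 0.155 FPKM in the wound bed and 1.67 FPKM in nonwounded skin and was not called (Benjamini-Hochberg adjusted p = 0.151, from the p of the authors' deposited table). Actn3, the alpha-actinin of fast fibres, stood at 0.462 FPKM (wound bed) against 1.58 FPKM (nonwounded) and was not called (Benjamini-Hochberg adjusted p = 0.114, from the p of the authors' deposited table), and Actn2, the alpha-actinin of all fibres, at 0.0909 FPKM (wound bed) against 0.355 FPKM (nonwounded).

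Tcap, the titin cap, stood at 0.178 FPKM in the wound bed and 1.13 FPKM in nonwounded skin. Smpx, a small muscle protein, had 0.0799 FPKM (wound bed) against 1.16 FPKM (nonwounded) over 3 isoforms, and Ldb3, a Z-disc PDZ and LIM protein, 0.0608 FPKM (wound bed) against 0.497 FPKM (nonwounded) over 7 isoforms. Myot, the Z-disc protein myotilin, was listed at 0 in the wound bed and at 0.309 FPKM in nonwounded skin. Smpx, Ldb3 and Myot were untested.

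Genes of calcium handling and the muscle membrane summed to 1.67 FPKM in the wound bed and 13.0 FPKM in nonwounded skin, with 5 of 8 lower. Pvalb, a calcium buffer of fast fibres, stood at 0.203 FPKM in the wound bed and 9.20 FPKM in nonwounded skin. Its log2 fold change of -5.50 was the most negative isoform sum of the list, and yet its p in the authors' deposited table was 0.171. Atp2a1, the calcium pump of fast fibres, stood at 0.559 FPKM (wound bed) against 2.24 FPKM (nonwounded), with p = 0.172 in the authors' deposited table. Casq1, the calcium store of the fast reticulum, had 0.231 FPKM in the wound bed and 1.07 FPKM in nonwounded skin, and an unadjusted p of 0.0498 in the authors' deposited table.

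The channel genes were barely detected. Ryr1, the calcium release channel, stood at 0.0319 FPKM in the wound bed and 0.0660 FPKM in nonwounded skin, and Cacna1s, its voltage sensor, at 0.0101 FPKM (wound bed) against 0.0868 FPKM (nonwounded). A further 3 stood higher in the wound bed without being tested. These were Casq2, the calsequestrin of heart and slow fibres, at 0.146 FPKM (wound bed) against 0.0531 FPKM (nonwounded), Jph1, which ties the surface membrane to the reticulum, at 0.237 FPKM (wound bed) against 0.115 FPKM (nonwounded), and Cav3, the muscle caveolin, at 0.250 FPKM (wound bed) against 0.141 FPKM (nonwounded).

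Ckm, the muscle creatine kinase that regenerates ATP, stood at 0.859 FPKM in the wound bed and 5.43 FPKM in nonwounded skin. Its log2 fold change was -2.66, without a call (p = 0.321 in the authors' deposited table). Mb, the oxygen-binding myoglobin, had 0.286 FPKM (wound bed) against 1.04 FPKM (nonwounded) over 3 isoforms, and Ckmt2, the mitochondrial creatine kinase, was listed at 0 in the wound bed and at 0.481 FPKM in nonwounded skin. The 3 myogenic transcription factors had the lowest sum of the 6 roles, with 0.00746 FPKM in the wound bed and 0.473 FPKM in nonwounded skin. Pax7, which marks muscle stem cells, stood at 0.00746 FPKM in the wound bed and 0.0185 FPKM in nonwounded skin. Myod1 and Myog, which drive muscle commitment and differentiation, were both listed at 0 in wound bed APs, and nonwounded APs had 0.0932 FPKM of Myod1 and 0.361 FPKM of Myog. None of these 3 factors was tested, nor was Ckmt2, and a gene listed at 0 can be a failed estimate.

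The deposited p-values did not follow the folds closely. Of the tested muscle isoforms with both values above 0 and a mean FPKM of at least 1, 8 stood at least 4-fold lower in the wound bed, and 2 of them were called. Their p-values in the authors' deposited table ran from 5e-05 (Mylpf) to 0.321 (Ckm). Over the whole table, 21.3% of 982 isoforms within the same limits were called. Without values per sample, the spread behind these p-values could not be shown.

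**Figure D2:**
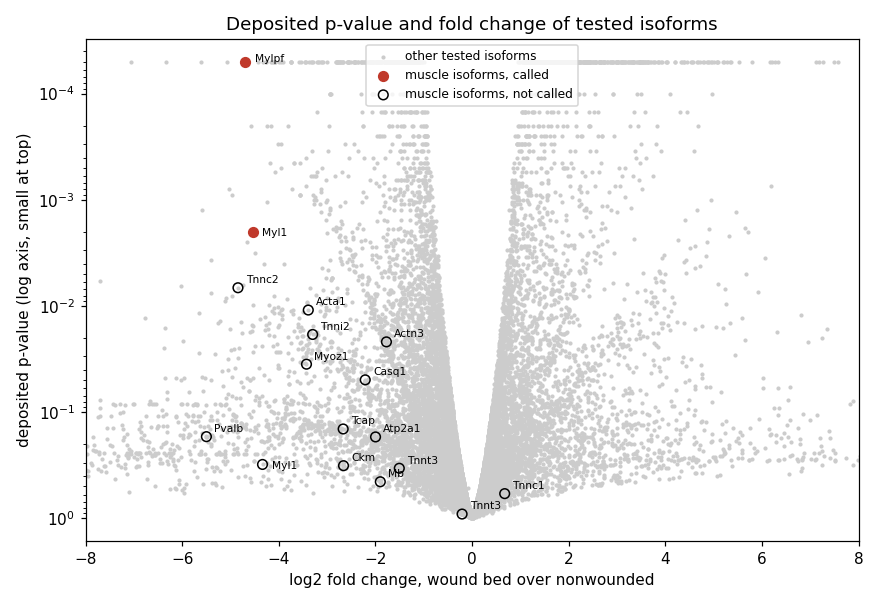
Deposited p-value (vertical log axis, small values at the top) against the log2 ratio of wound bed to nonwounded FPKM (horizontal axis) for tested isoforms above 0 in both groups, grey for all, red for called muscle isoforms and open circles for muscle isoforms not called. Isoforms beyond 8 in size are not drawn. Mylpf (-4.69) and Tnnc2 (-4.85) have similar folds but p-values of 5e-05 and 0.00675, and Pvalb (-5.50) has 0.171.

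Fast and slow fibre genes were set side by side in 6 pairs that do the same job in different fibres, by the share of the fast gene in the FPKM of the pair within each group. For Tnni2 and Tnni1 the fast share was 95.1% in wound bed APs, against 99.6% in nonwounded APs. For Tnnt3 and Tnnt1 it was 83.5% in wound bed APs, against 98.1% in nonwounded APs, and for Casq1 and Casq2 61.3% in wound bed APs, against 95.3% in nonwounded APs. Tnnc2 and Tnnc1 differed most, with 27.8% in wound bed APs and 94.6% in nonwounded APs, and by isoform sums these were the only pair in which the slow gene led in a group. By major isoforms the Tnnt3 share was 0% in wound bed APs, since that Tnnt3 isoform was listed at 0, against 95.7% in nonwounded APs. Mybpc2 made up 57.4% of its pair in wound bed APs and 63.0% in nonwounded APs. Myoz1 and Myoz2 went the other way, with 100% in the wound bed, where Myoz2 was listed at 0, and 67.3% in nonwounded skin. No interval can be given for these shares, since the number of fragments is not known.

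**Figure D3:**
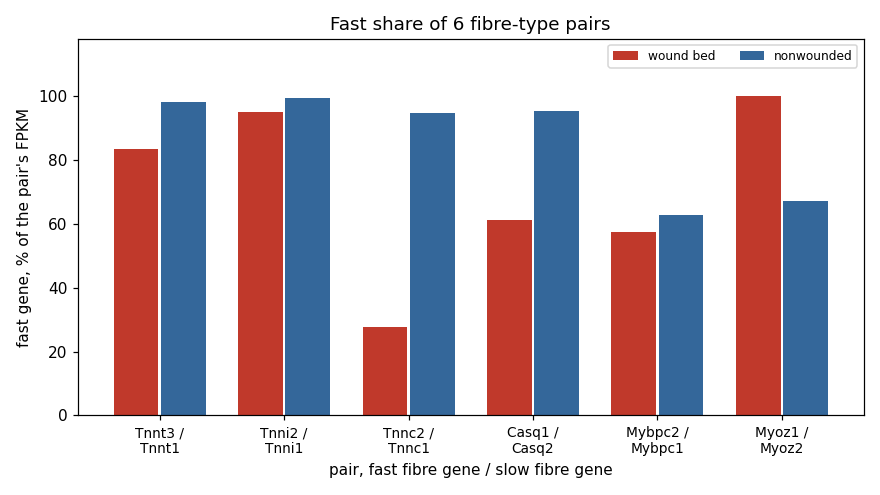
Share of the fast fibre gene in the summed FPKM of each of 6 fast and slow pairs (vertical axis, percent; horizontal axis, pairs), with red bars for the wound bed and blue bars for nonwounded skin. The share is lower in the wound bed in 5 pairs, most in Tnnc2 and Tnnc1 (27.8% in the wound bed against 94.6% in nonwounded skin), and higher in Myoz1 and Myoz2.

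Among 14 fast fibre genes, all in the list of 40, 13 stood lower in the wound bed and only Myh2 stood higher, with a median log2 fold change of -3.06 for isoform sums. Among 10 slow fibre genes, of which Myh7, Myl2, Myl3 and Atp2a2 lie outside the list of 40, 4 stood lower and 6 higher, with a median of 0.54 over the 9 above 0 in both groups. Atp2a2, the calcium pump of slow fibres, heart and most other cells, was called higher, with 92.7 FPKM in the wound bed and 43.0 FPKM in nonwounded skin. The other slow genes were each under 2 FPKM in both groups. Myh7, the slow heavy chain, stood at 0.0661 FPKM in the wound bed and 0.0104 FPKM in nonwounded skin, and Myh3, the embryonic heavy chain, at 0.0184 FPKM (wound bed) against 0.00159 FPKM (nonwounded), both untested.

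The choice of genes did not use transcript length, but it did use the FPKM values set against length here, so these are descriptions. Length also went with gene family, the light chains and troponins being short and the heavy chains long. The 18 muscle genes with a major transcript under 1500 bases had a median of 0.268 FPKM in the wound bed and 1.15 FPKM in nonwounded skin. The 9 with 5000 bases or more (the heavy chains, Ryr1, Neb, Ttn, Cacna1s and Pax7) had medians of 0.0319 FPKM (wound bed) against 0.0464 FPKM (nonwounded), and their highest nonwounded value was 0.388 FPKM. FPKM is already divided by length. Across the 40 genes the Spearman correlation of the major isoform's FPKM with its length was -0.41 in wound bed APs, against -0.68 in nonwounded APs. Over the 34 whose major isoform was above 0 in both groups it was -0.65 in wound bed APs, against -0.69 in nonwounded APs. Across 16812 genes above 0 in both groups it was -0.04 in wound bed APs, against -0.09 in nonwounded APs, and the genes of each share the same libraries. Lengths are those of GENCODE transcripts linked to the RefSeq identifiers and may differ from those the authors used.

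**Figure D4:**
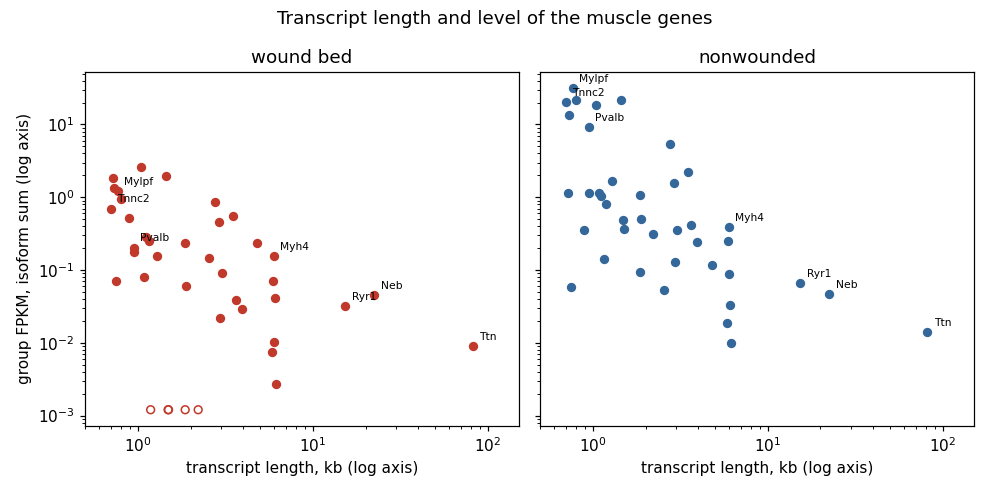
Group FPKM summed over isoforms (vertical log axis) against the length of the major transcript in kilobases (horizontal log axis) for the 40 muscle genes, with the wound bed on the left and nonwounded skin on the right; open circles at the lower edge are genes listed at 0. The genes above 5 FPKM in nonwounded skin, such as Mylpf and Tnnc2, are mostly on the short side, and Ttn (0.00892 FPKM in the wound bed and 0.0142 FPKM in nonwounded skin) is the longest.

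Muscle genes outside the list of 40 were taken from 5 further lists with 88 genes in the table. These lists, too, were chosen with earlier results of these data known. By isoform sums 69 stood lower in the wound bed and 19 higher, and over all genes with unequal sums 66.0% stood lower. The median log2 fold change was -0.90 over 77 genes above 0 in both groups, against -0.22 over 17272 genes. Their summed FPKM went the other way, with 430 FPKM in the wound bed and 383 FPKM in nonwounded skin. Of 28 tested, 3 were called lower and 2 higher, against the same 8.68% and 7.01% of all genes. Pgam2, the muscle phosphoglycerate mutase of glycolysis, fell to 1.42 FPKM in the wound bed, against 13.4 FPKM in nonwounded skin (log2 fold change -3.23). Sln, a small inhibitor of the calcium pump, was called lower, listed at 0 in the wound bed and at 1.06 FPKM in nonwounded skin.

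The metabolic list had the lowest median of the 5, at -1.69 over 18 genes, with 15 of them lower. In it Cox7a1, a respiratory chain subunit of muscle and brown fat, stood at 3.94 FPKM in the wound bed and 14.7 FPKM in nonwounded skin without a call. Aldoa, a glycolytic enzyme of most cells, stood at 278 FPKM (wound bed) against 242 FPKM (nonwounded). The sarcomere and assembly list had a median of -0.83, with 25 of 28 genes lower and 3 higher. Ankrd23, its highest gene in nonwounded skin, stood at 0.682 FPKM (wound bed) against 2.78 FPKM (nonwounded) without a call. In the same list Cmya5, a costamere protein, was called higher at 0.888 FPKM (wound bed) against 0.170 FPKM (nonwounded). Its Benjamini-Hochberg adjusted p of 0.04998, from the p of the authors' deposited table, lay at the edge of the threshold. In the triad list (median -0.90) Rrad, a small GTPase, rose by 4.39 on the log2 scale to 55.7 FPKM in the wound bed, against 2.65 FPKM in nonwounded skin. The membrane and junction list had 0 of 2 tested genes called and a median of -0.85, and the list of myogenic cells and factors a median of -0.78.

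Heart and smooth muscle markers were set beside the skeletal genes. Of 8 heart muscle markers 3 stood lower and 5 higher in the wound bed by isoform sums, and 0 of 2 tested were called. The list summed to 3.60 FPKM in the wound bed and 4.64 FPKM in nonwounded skin. Most of it was Myl4, at 2.94 FPKM in the wound bed and 2.72 FPKM in nonwounded skin. Tnni3, also tested and not called, stood at 0.272 FPKM (wound bed) against 1.65 FPKM (nonwounded). The cardiac heavy chain Myh6 was listed at 0 in the wound bed and at 0.0131 FPKM in nonwounded skin. Of the 8 smooth muscle markers 5 stood higher in the wound bed and 3 (Myh11, Actg2 and Des) lower. Des is also counted in the list of myogenic cells and factors. Calls numbered 3 higher (7.01% over all genes) and 0 lower (8.68% over all genes) among the 6 tested, with sums of 75.6 FPKM in the wound bed and 29.8 FPKM in nonwounded skin. Acta2, the smooth muscle actin that contractile fibroblasts also make, rose by 4.21 on the log2 scale, while Myh11, the smooth muscle heavy chain, stood at 0.119 FPKM (wound bed) against 0.170 FPKM (nonwounded).

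Lower values in the wound bed were also seen for markers of some other cell types. Over all genes, 66.0% stood lower by isoform sums, and of tested genes 8.68% were called lower and 7.01% higher. The marker lists were chosen with earlier results of these data known, so their counts are descriptions and are not read against these shares. All 6 erythroid markers in the table stood lower, 5 of 6 tested being called, with sums of 206 FPKM in the wound bed and 3746 FPKM in nonwounded skin, 18.1-fold lower. All but Alas2 are globin genes, and reads shared between such similar genes make the value of each uncertain, so they are not separate markers. All 8 mature adipocyte markers stood lower, 3 of 7 tested being called (Adipoq, Car3 and Fabp4), with sums of 53.6 FPKM (wound bed) against 285 FPKM (nonwounded). All 5 mast cell markers stood lower, 4 of 5 tested being called, with sums of 6.24 FPKM in the wound bed and 59.0 FPKM in nonwounded skin. Of 5 Schwann cell markers 4 stood lower and 1 of 2 tested (Mbp) was called, with sums of 4.28 FPKM (wound bed) against 14.5 FPKM (nonwounded), and Sox10 was listed at 0 in the wound bed. Macrophage markers stood higher in 7 of 7 cases, 5 of 7 tested being called, with sums of 816 FPKM in the wound bed and 234 FPKM in nonwounded skin. Of 6 keratinocyte markers 4 stood higher and 2 lower, and of 5 tested 2 were called higher and 0 lower, with sums of 32.4 FPKM (wound bed) against 17.5 FPKM (nonwounded). Of 5 endothelial markers, all tested, 3 (Pecam1, Cdh5 and Kdr) stood higher without a call and 2 lower, of which Lyve1 was called, and their median log2 fold change was 0.11. Their sums of 25.7 FPKM (wound bed) against 93.7 FPKM (nonwounded) were mostly Tek, at 18.4 FPKM (wound bed) against 83.1 FPKM (nonwounded), which was not called. Of 8 AP markers, all tested, 5 stood lower and 3 higher, and 2 were called lower (Cd24a and Dpp4), with sums of 2670 FPKM in the wound bed and 4269 FPKM in nonwounded skin. The part of these cells in the muscle values was not tested.

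**Figure D5:**
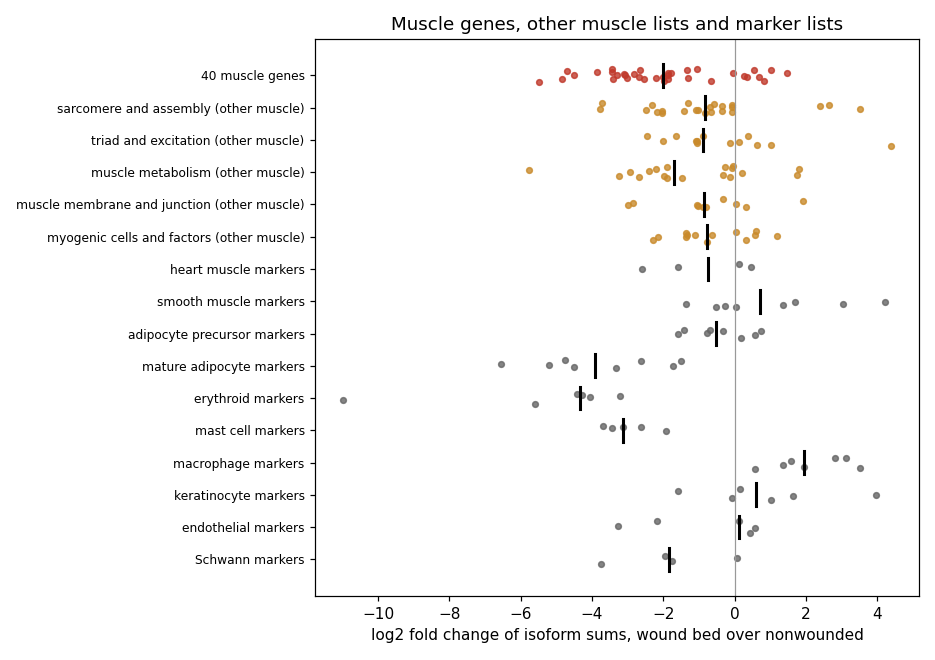
Log2 ratio of isoform sums, wound bed to nonwounded (horizontal axis), for each gene above 0 in both groups, by list (rows), with a bar at each median; red for the 40 muscle genes, orange for other muscle lists and grey for marker lists. The median is -2.0 for the 40 muscle genes, between -0.78 and -1.69 for the other muscle lists, and -4.35 for erythroid markers.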

How the data were processed

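Trizol and a column kit gave the RNA, and libraries were TruSeq mRNA, per the labels' protocols. Reads were aligned with TopHat2 2.0.2 and groups compared with Cuffdiff 2.0.2, with mm9 named as the build, per the submitters' processing notes. The authors deposited 1 table of 34535 isoforms with an FPKM per group (8 samples in 2 groups) and a p-value per isoform. Depth per sample is unknown, and no count test was run.

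The deposited p-values were Benjamini-Hochberg adjusted over 17775 tested isoforms, and at 0.05 it gave the deposited yes or no for all 34535. The adjustment was tested on simulated p-values. The log2 fold change is wound bed over nonwounded FPKM, without a pseudocount. The 15 isoforms without a usable value were left out. Loci count from 1, and 38 of 40 came within 100 bases of the gene's GRCm38 start or end despite the mm9 label, so their build is uncertain.

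The members and all lists were chosen with earlier results of these data known. Besides the 40 members, genes named came from a rule of up to 3 called genes per direction and list and the 3 with the highest nonwounded FPKM, and others were picked after their values were seen. A gene among those called is not reported here. Per-sample columns not used numbered 0. The alternatives were other p thresholds, fold and FPKM minimums, zeros left out, pseudocounts, centring and isoform sums. Python 3.11.15, numpy 2.4.6, pandas 2.3.3 and matplotlib 3.10.9 were used.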

Additional observations from a re-analysis of the deposited data

How the results depend on the processing

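The 3 members called lower became 2 at an adjusted p under 0.01 and 5 at 0.1, and 2 without isoforms at 0. The 3 other muscle genes called lower became 5 at 0.1 and 2 without isoforms at 0. Shares over all genes at these other settings are not given, so the counts only describe the lists. The 32 members lower by major isoform became 33 with isoform sums and 31 after centring on the median of isoforms reaching 1 FPKM in both groups (-0.11), but 13 among those reaching 1 FPKM in the higher group, because 14 genes remain. Of these 14, 10 were under 1 FPKM in the wound bed and so passed only through nonwounded skin, which fixes their direction. The members' median log2 fold change, -1.93, was -1.39 with a pseudocount of 0.1, -0.35 with a pseudocount of 1, -2.0 with isoform sums, -3.30 among those reaching 1 FPKM in the higher group and -1.82 after centring. The sign among those reaching 1 FPKM is largely set by that limit, and a pseudocount of 1 exceeds most of the members' own values.

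By major isoforms in place of sums, the fast share of Tnnt3 and Tnnt1 was 0% in the wound bed, where the major Tnnt3 isoform was listed at 0, and 95.7% in nonwounded skin. That of Tnni2 and Tnni1 was 95.1% in the wound bed, against 99.6% in nonwounded skin, and that of Mybpc2 and Mybpc1 was 58.2% in the wound bed, against 66.8% in nonwounded skin.

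No paired analysis was possible because the table has a single value per group, and for the same reason no sample was left out in turn. The depth is unknown, so no limit of detection is given for the 35 members under 1 FPKM in the wound bed or the 24 in nonwounded skin.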
